A study of Mus musculus with 10 samples.

Results

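Transcripts of 10 genes that mark hematopoietic stem cells, Cd34, Procr, Hlf, Slamf1, Cd48, Esam, Erg, Msi2, Egfl7 and Prom1, were followed across mouse models of acute myeloid leukemia (AML). They were taken by gene symbol from the deposited RNA-seq gene tables and are 10 of the 50600 gene entries in each table. The tables cover 2 Cbfb::MYH11 tumors (libraries 30 and 27), 3 MLL::AF9 tumors (2, 47 and 42), 3 MLL::ENL tumors (NO, RL and L) and 2 samples of WT cKit+ cells (1 and 2), all from C57BL/6 mice. The Cbfb::MYH11 mice carry the human inversion 16 fusion as a floxed knock-in allele, switched on by Mx1-Cre after Poly(I:C) at postnatal day 45 (labelled Mx+; Hygr+, with Hygr unexplained). Mx1-Cre responds to interferon and is not limited to blood cells. The MLL::AF9 mice are heterozygous for a germline knock-in of the fusion (MLL-AF9 +/-) and were untreated. The MLL::ENL tumors arose in irradiated mice given stem and progenitor cells transduced with a retrovirus together with WT marrow, so host and helper cells may remain. Tumor cells came from spleen and were magnetically selected, by Mac1, Gr1 and cKit for the MLL models. The selection is labelled cKit+ for Cbfb::MYH11 27 and "cKit_" for Cbfb::MYH11 30. The WT cells came from bone marrow, so tissue and leukemia cannot be told apart in any comparison with WT, and the labels give no age.

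A hematopoietic stem cell in mouse marrow is recognised by a combination of surface proteins and kept in its state by a small set of transcription and RNA-binding factors. Slamf1 (CD150), Procr (the endothelial protein C receptor, EPCR), Esam (an endothelial adhesion molecule) and Prom1 (CD133) are surface proteins used to enrich stem cells. Cd48 is used in the opposite sense, since mouse stem cells lack it and their progeny gain it, and Cd34 is likewise low on long-term mouse stem cells and high on early progenitors. Hlf and Erg are transcription factors of stem cell identity, Msi2 is an RNA-binding protein that supports self-renewal and is studied in myeloid leukemia, and Egfl7 is a secreted factor of endothelium whose gene harbours miR-126.

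Library totals lay between 12134917 and 20510574 counts (median 17313392), and replicates of a group correlated across genes at r = 0.868 to 0.961. Levels between libraries are in CPM, counts divided by library totals after TMM scaling, and levels between genes are in TPM, which is per transcript length. By the study's text each library came from a mouse of its own, so p-values measure the spread between mice. The Y-linked transcripts Ddx3y, Uty, Eif2s3y and Kdm5d went against the labelled sex in 4 libraries (MLL::AF9 47 and 42, MLL::ENL NO and RL), and they were present in 5 of the 6 MLL tumors and at or near 0 in the Cbfb::MYH11 and WT libraries. The numbers 42 and 47 are interchanged between labels and deposited names, which leaves the genotype of both libraries as MLL::AF9. Of the antigens used for selection, Kit was at 187 and 290 CPM in the Cbfb::MYH11 tumors and at 31.3 to 119 CPM in the MLL tumors, against 65.7 and 88.7 CPM in WT cells. Neutrophil transcripts were abundant in the marrow sample despite its cKit+ label, with 6 markers that summed to 72.8 to 189 CPM in Cbfb::MYH11 tumors, 12020 to 153900 CPM in MLL::AF9 and 3474 to 60420 CPM in MLL::ENL, against 75050 and 129200 CPM in WT cells. The 7 erythroid markers summed to 3862 and 9900 CPM in Cbfb::MYH11 tumors, 28.4 to 6065 CPM in MLL::AF9 and 500.1 to 9884 CPM in MLL::ENL, against 41430 and 204900 CPM in WT cells. The part of such cells in the comparisons with WT was not tested.

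The 10 markers did not move together in any model. In Cbfb::MYH11 tumors Egfl7 and Msi2 were higher and Prom1 lower than in WT cKit+ cells, which makes 3 of 10 members called at an adjusted p under 0.05 (edgeR quasi-likelihood test, Benjamini-Hochberg over 14875 genes), beside 10.5% of all genes tested (2 higher beside 3.54%, 1 lower beside 6.92%). In MLL::AF9 tumors Egfl7 was lower, 1 of 10 members beside 2.88% of all genes (lower 2.08%, higher 0.807%), and in MLL::ENL tumors Egfl7 and Msi2 were lower, 2 of 10 beside 2.1% of all genes (lower 1.55%, higher 0.551%). Between the models, with all tumors from spleen, 5 of 10 members differed in the MLL fusions against Cbfb::MYH11, beside 25.6% of all genes, with Prom1 higher (13.2% of all genes) and Hlf, Cd48, Msi2 and Egfl7 lower (12.4%) in the MLL tumors. The labelled selection and the way the tumors were made also differed between these models, and neither can be told apart from the fusion. Y-linked transcripts were present in 5 of the 6 MLL tumors and at or near 0 in the Cbfb::MYH11 and WT libraries. Sex thus largely went with these groups, and its part in the differences was not tested. No member passed between MLL::AF9 and MLL::ENL in edgeR, where 0.0134% of all genes passed. All 3 comparisons with WT share the same 2 WT libraries. All 10 members passed the filter on low counts, Esam only because both WT libraries reached 10 counts, which no tumor did. Procr reached 10 counts only in WT and MLL::AF9 libraries, and Slamf1 in no MLL::ENL tumor. The libraries of the compared groups did not overlap for 8 of 10 members in Cbfb::MYH11 against WT (60.8% of all genes), 5 in MLL::AF9 against WT (41.6%) and 4 in MLL::ENL against WT (44.3%). This held for 3 members between MLL::AF9 and MLL::ENL (13.3% of all genes) and 5 between the MLL fusions and Cbfb::MYH11 (39.9%). Against WT, the median log2 fold change of the members was 0.30 for Cbfb::MYH11, −0.66 for MLL::AF9 and −1.39 for MLL::ENL, beside −0.01, 0.08 and 0.02 over all genes tested.

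**Figure D1:**
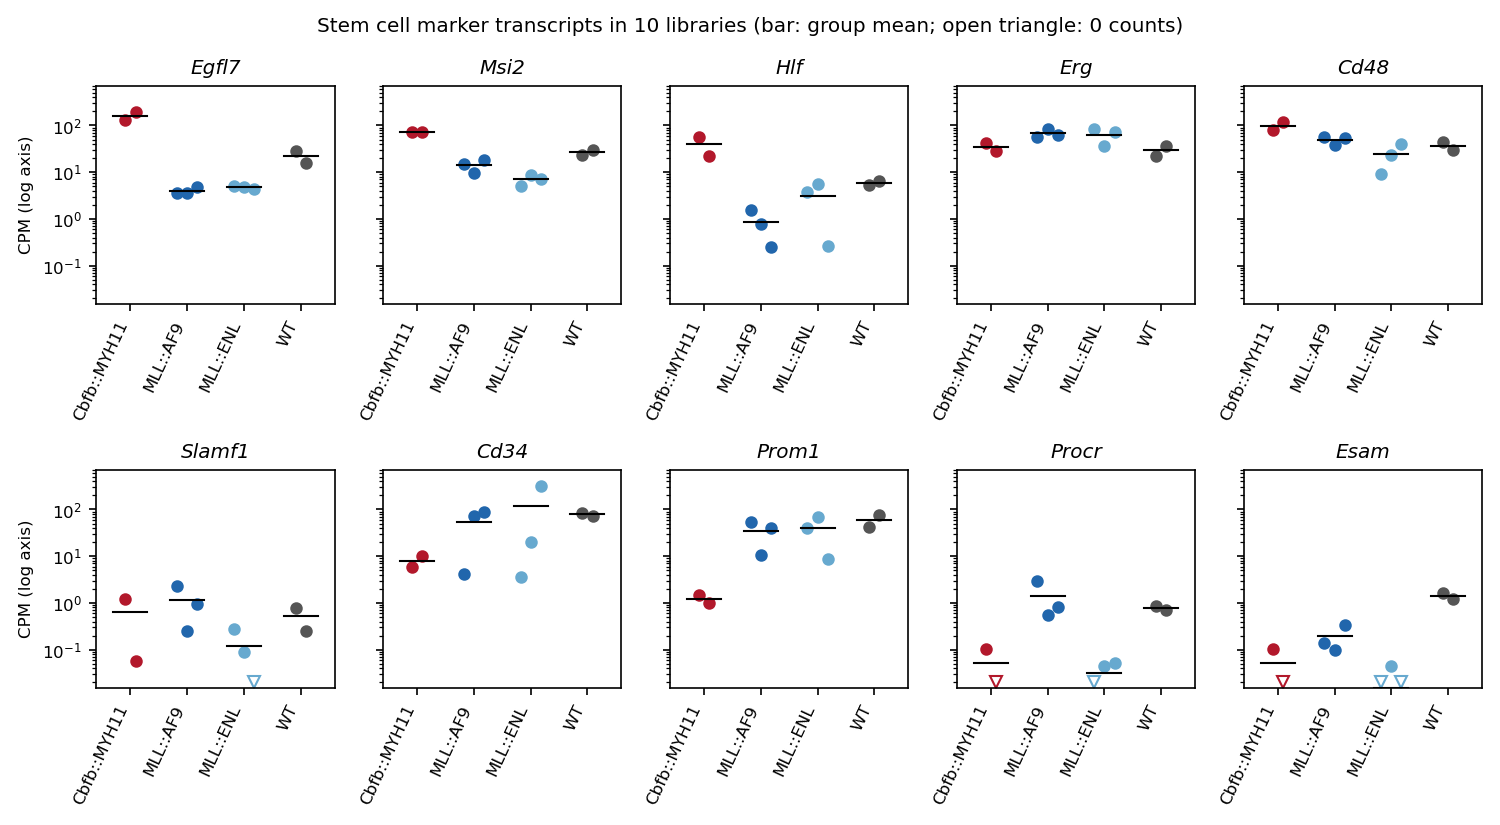
Levels of the 10 stem cell marker transcripts in CPM on a log axis, 1 point per library, from Cbfb::MYH11 on the left to WT on the right, with a bar at the group mean and an open triangle for 0 counts. Egfl7 and Msi2 lie above WT in both Cbfb::MYH11 tumors and below WT in all 6 MLL tumors, while Cd34 spans 3.53 to 326 CPM within MLL::ENL.

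Egfl7, the secreted EGF-like factor, showed the clearest separation. Its level was 128 and 192 CPM in Cbfb::MYH11 tumors 30 and 27. It was 3.61, 3.59 and 4.94 CPM in MLL::AF9 2, 47 and 42 and 5.20, 4.83 and 4.43 CPM in MLL::ENL NO, RL and L, against 28.8 and 15.8 CPM in WT 1 and WT 2. The 4 groups thus fell into 3 levels, with Cbfb::MYH11 highest, WT between, and both MLL models lowest and overlapping each other. The log2 fold change in Cbfb::MYH11 against WT was 2.84 (standard error 0.37, edgeR adjusted p = 0.00202) and held without any 1 library. Against the same WT cells it was −2.46 in MLL::AF9 (standard error 0.32, edgeR adjusted p = 0.00709) and −2.21 in MLL::ENL (standard error 0.32, edgeR adjusted p = 0.0118). The MLL::AF9 call was lost without WT 1 (edgeR adjusted p = 0.085), and the MLL::ENL call without WT 1 (0.127), MLL::ENL RL (0.058) or MLL::ENL L (0.0511). Limma on log2(TPM + 1) made neither call (adjusted p = 0.0781 and 0.12), nor did edgeR make the first on MLL::AF9 and WT alone (0.066). Bulk libraries cannot tell fewer cells that carry a transcript from less RNA per cell. The MLL fusions against Cbfb::MYH11 gave −5.18 (standard error 0.26, edgeR adjusted p = 8.28e-06), a call kept without any 1 library.

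Egfl7 lies on chromosome 2 from 26580014 to 26593120 (mm10, plus strand), and miR-126, a microRNA of stem cells and endothelium, is encoded inside it. The mature strand is shown because the host transcript gave the clearest difference. Capitals mark the seed, bases 2 to 8, and the letters are from RefSeq (GRCm38.p6), where the strand lies at chr2:26591402-26591423.
mmu-miR-126a-3p: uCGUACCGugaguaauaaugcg
Of 19 Egfl7 transcripts in GENCODE M21, 9 span this stretch, 8 with it in an intron and 1 with an exon over it. The Mir126a entry held 0 counts in all 10 libraries, and libraries of this kind do not capture mature microRNAs, so miR-126 itself was not measured. Egfl7 also overlaps Gm20532 on its own strand and Agpat2 on the opposite strand, and the strand setting of the counting is not given in the sources used here, so some reads may belong to these neighbours.

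Because Egfl7 is best known from blood vessels and the tumors came from spleen, transcripts of 12 endothelial genes were read beside it. They summed to 15.3 and 56.1 CPM in Cbfb::MYH11 tumors and 4.81 to 22.9 CPM in the MLL tumors, against 26.2 and 34.2 CPM in WT cells. Of the 56.1 CPM in Cbfb::MYH11 30, Tek alone gave 34.5 CPM. Cdh5 (VE-cadherin), the defining gene of endothelium, was below 1 CPM in all 10 libraries, and Emcn was at 0 in all 8 tumors. Plvap was at 14.6 and 6.39 CPM in Cbfb::MYH11 tumors, against 7.90 and 4.58 CPM in WT cells, and Stab2 was at 4.58 and 7.61 CPM, against 4.19 and 7.34 CPM in WT cells. Of the 8 endothelial genes tested, edgeR called none in Cbfb::MYH11 against WT, beside 10.5% of all genes. An unadjusted p under 0.05 was found there for 3, a share that is not given here for all genes. In the MLL fusions against Cbfb::MYH11 edgeR called Flt1 higher (13.2% of all genes) and Stab2, Tek and Plvap lower (12.4%). The part of endothelial cells in the Egfl7 difference was not tested. Mast cell and basophil transcripts were also highest in the Cbfb::MYH11 tumors. The 8 genes of that list summed to 2375 and 3119 CPM in Cbfb::MYH11 tumors, 21.9 to 258 CPM in MLL::AF9 and 71.1 to 326 CPM in MLL::ENL, against 446 and 555 CPM in WT cells. Within the list, edgeR called Ms4a2, Fcer1a and Cma1 higher (3.54% of all genes) and Prss34 and Mcpt8 lower (6.92%) in Cbfb::MYH11 against WT. The part of such cells in the Egfl7 difference was not tested.

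**Figure D2:**
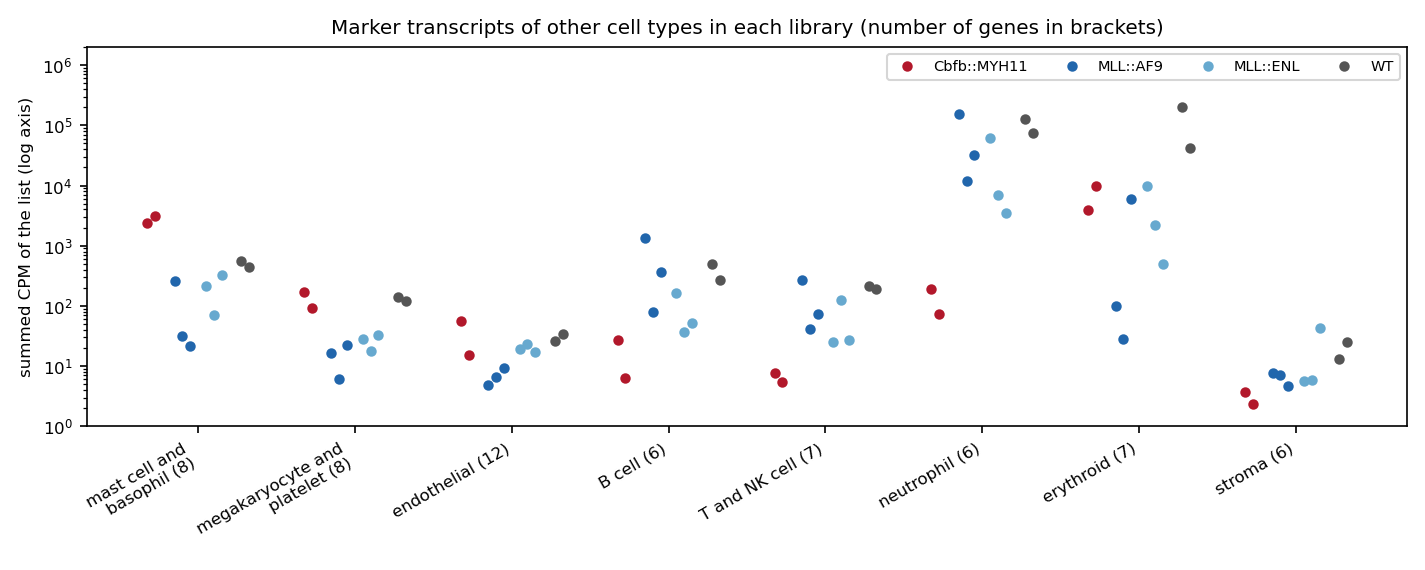
Summed CPM, on a log axis, of marker transcripts of 8 other cell types, 1 point per library, with Cbfb::MYH11, MLL::AF9, MLL::ENL and WT from left to right in each list. Mast cell and basophil transcripts are highest in both Cbfb::MYH11 tumors (2375 and 3119 CPM), neutrophil transcripts are lowest there (72.8 to 189 CPM), and endothelial transcripts do not exceed 56.1 CPM in any library.

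Msi2 encodes Musashi-2, which binds mRNAs and holds stem cells from differentiating, and it lies on chromosome 11 from 88339382 to 88718513 (mm10, minus strand). Its level was 73.7 and 72.2 CPM in Cbfb::MYH11 tumors. It was 14.9, 9.53 and 18.6 CPM in MLL::AF9 and 5.11, 8.93 and 7.20 CPM in MLL::ENL, against 23.4 and 29.7 CPM in WT cells. In CPM, no library of any group overlapped another group, with Cbfb::MYH11 on top, then WT, MLL::AF9 and MLL::ENL. On the TPM scale of the limma alternative, however, MLL::AF9 42 lay above both WT libraries (6.21 against 3.40 and 5.53 TPM). The log2 fold change was 1.46 in Cbfb::MYH11 against WT (standard error 0.38, edgeR adjusted p = 0.0401), 2.75-fold, and −1.90 in MLL::ENL against WT (standard error 0.34, edgeR adjusted p = 0.0299). Both calls were close to the threshold. The first was lost without WT 1 (edgeR adjusted p = 0.256), WT 2 (0.112), Cbfb::MYH11 30 (0.147), Cbfb::MYH11 27 (0.148) or MLL::ENL L (0.0574), and the second without any 1 library of the 3 groups other than MLL::AF9 (0.0574 to 0.158). Limma on log2(TPM + 1) made neither call (adjusted p = 0.091 and 0.265). In MLL::AF9 the value of −0.89 missed the threshold (edgeR adjusted p = 0.151). Between the models Msi2 was lower in the MLL fusions than in Cbfb::MYH11, with −2.85 (standard error 0.28, edgeR adjusted p = 0.000153), and every single-library omission kept that call. Msi1, the paralog known from neural stem cells, did not exceed 0.15 CPM in any library.

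Hlf, a transcription factor of the PAR bZIP family that marks quiescent stem cells, was highest in Cbfb::MYH11 tumors. Its level was 56.7 and 22.8 CPM in Cbfb::MYH11 tumors. It was 1.56, 0.80 and 0.25 CPM in MLL::AF9 and 3.71, 5.55 and 0.26 CPM in MLL::ENL, against 5.21 and 6.44 CPM in WT cells. Of the MLL tumors, only MLL::ENL RL reached the WT range. Both Cbfb::MYH11 tumors were above every other library, yet tumor 30 held 2.49 times the level of tumor 27, and the log2 fold change of 2.77 against WT did not pass in edgeR (standard error 1.13, adjusted p = 0.147). DESeq2 called it (adjusted p = 0.0489), as did edgeR with no filter (0.0497), limma on log2(TPM + 1) (0.0285) and edgeR on these 2 groups alone (0.00857). In MLL::AF9 all libraries lay below WT (log2 fold change −2.77, edgeR adjusted p = 0.141). DESeq2 (0.0472) and edgeR without the filter (0.0462) called it. The MLL fusions against Cbfb::MYH11 gave −4.59 (standard error 0.80, edgeR adjusted p = 0.00303), and that call held without any 1 library.

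Hlf belongs to a family that shares a DNA site with Tef, Dbp and the repressor Nfil3. Tef was higher in Cbfb::MYH11 tumors, at 48.5 and 61.3 CPM, against 10.1 and 13.4 CPM in WT cells (log2 fold change 2.22, edgeR adjusted p = 0.0188). Nfil3 was lower there, at 2.01 and 2.15 CPM, against at least 19.7 CPM in WT cells (log2 fold change −3.49, edgeR adjusted p = 0.011). Of the 4 genes, Hlf included, 1 was higher and 1 lower in Cbfb::MYH11 against WT, beside 3.54% and 6.92% of all genes. None of the 4 passed in either MLL model against WT in edgeR, with 1 gene at an unadjusted p under 0.05 in each. Of all 14875 genes, 24.4% had an unadjusted p under 0.05 in MLL::AF9 and 22% in MLL::ENL against WT. In the MLL fusions against Cbfb::MYH11, where 25.6% of all genes passed, all 4 passed, Nfil3 higher and Hlf, Tef and Dbp lower.

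Erg, an ETS transcription factor needed to maintain stem cells, was the member with the narrowest range. It was at 41.7 and 29.1 CPM in Cbfb::MYH11 tumors, 55.4, 84.2 and 63.7 CPM in MLL::AF9 and 82.4, 36.1 and 71.4 CPM in MLL::ENL, against 21.8 and 36.9 CPM in WT cells. Every library held at least 21.8 CPM, and neighbours in the order MLL::AF9, MLL::ENL, Cbfb::MYH11, WT overlapped. Its log2 fold changes of 1.21 in MLL::AF9 and 1.11 in MLL::ENL against WT did not pass in edgeR (adjusted p = 0.12 and 0.155), though DESeq2 called the first (0.0421). In Cbfb::MYH11 against WT the difference was 0.27 on the log2 scale (95% interval −0.69 to 1.23). Fli1, the closest relative of Erg, was at 48.3 and 38.4 CPM in Cbfb::MYH11 tumors, 113 to 156 CPM in MLL::AF9 and 74.8 to 172 CPM in MLL::ENL, against 42.5 and 99.3 CPM in WT cells. Fli1 was higher in the MLL fusions than in Cbfb::MYH11 (log2 fold change 1.58, edgeR adjusted p = 0.0204), whereas for Erg the value of 0.89 did not pass (edgeR adjusted p = 0.105). It passed without MLL::ENL RL (0.0476).

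**Figure D3:**
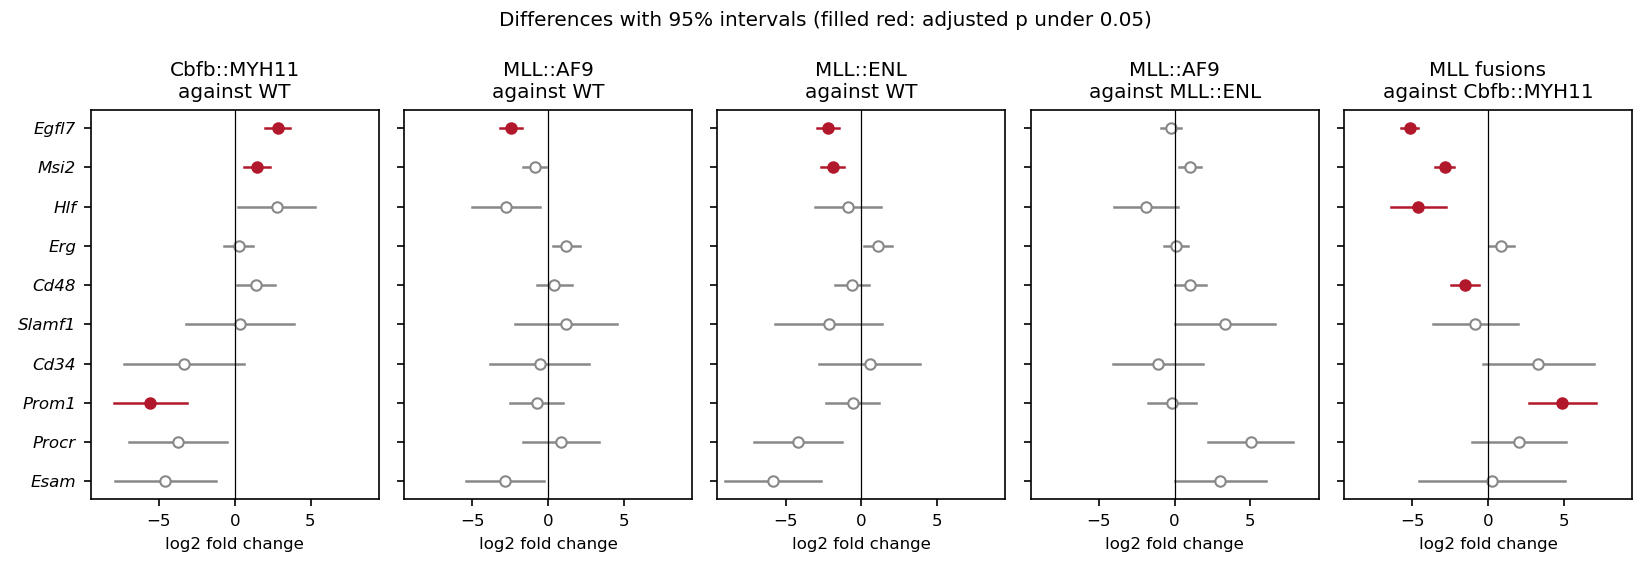
Log2 fold changes of the 10 markers with 95% intervals in the 5 comparisons, filled red where the adjusted p is under 0.05. Egfl7 is called in 4 comparisons, to the right of 0 in Cbfb::MYH11 against WT and to the left in the other 3, and no marker is called in MLL::AF9 against MLL::ENL.

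Prom1 encodes CD133, a pentaspan membrane protein of stem and progenitor cells, and lies on chromosome 5 from 43993620 to 44102032 (mm10, minus strand). Its level was 1.49 and 0.99 CPM in Cbfb::MYH11 tumors. It was 54.0, 10.9 and 40.3 CPM in MLL::AF9 and 40.4, 69.9 and 8.76 CPM in MLL::ENL, against 43.0 and 75.1 CPM in WT cells. Both Cbfb::MYH11 tumors lay below all other libraries, and the other 3 groups overlapped. The log2 fold change in Cbfb::MYH11 against WT was −5.56 (standard error 1.07, edgeR adjusted p = 0.0119). It did not pass without WT 2 (edgeR adjusted p = 0.0526), Cbfb::MYH11 30 (0.0764) or Cbfb::MYH11 27 (0.105), nor by limma-voom (0.0938). The MLL fusions against Cbfb::MYH11 gave 4.90 (standard error 0.99, edgeR adjusted p = 0.00629), lost without Cbfb::MYH11 27 (0.0794) and by limma-voom (0.101). Neutrophil transcripts were also lowest in the Cbfb::MYH11 tumors, with all 6 markers lower there than in WT (edgeR), beside 6.92% of all genes. The part of neutrophils in the Prom1 difference was not tested. Prom2, the only paralog, did not exceed 0.65 CPM in any library.

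Cd34 and its relatives are sialomucins that coat the surface of progenitors and endothelium. Cd34 was at 5.87 and 9.94 CPM in Cbfb::MYH11 tumors, 4.17, 71.2 and 86.7 CPM in MLL::AF9 2, 47 and 42 and 3.53, 20.4 and 326 CPM in MLL::ENL NO, RL and L, against 85.4 and 74.2 CPM in WT cells. The highest MLL::ENL tumor held 92.3 times the level of the lowest, and the highest MLL::AF9 tumor 20.8 times that of the lowest. Both Cbfb::MYH11 tumors were below WT, but MLL::AF9 2 and MLL::ENL NO were lower still. No comparison of Cd34 passed in edgeR, though without the filter on low counts the MLL fusions against Cbfb::MYH11 did (log2 fold change 3.33, adjusted p = 0.0395). The log2 fold change in Cbfb::MYH11 against WT was −3.34 (95% interval −7.31 to 0.64, edgeR adjusted p = 0.259), and a fit of only these 2 groups called it (0.00111). In MLL::ENL against WT it was 0.55 and turned to −2.72 without tumor L. Podxl, which encodes podocalyxin and is the closest relative of Cd34, ran the other way in Cbfb::MYH11 tumors, at 662 and 723 CPM, and did not exceed 0.37 CPM in the MLL tumors, against 0 and 1.16 CPM in WT cells (log2 fold change in Cbfb::MYH11 10.07, standard error 1.17, edgeR adjusted p = 0.00122). Per length, Podxl was at 144 and 143 TPM and Cd34 at 2.82 and 4.34 TPM in the Cbfb::MYH11 tumors, and in the other 8 libraries Cd34 lay above Podxl.

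**Figure D4:**
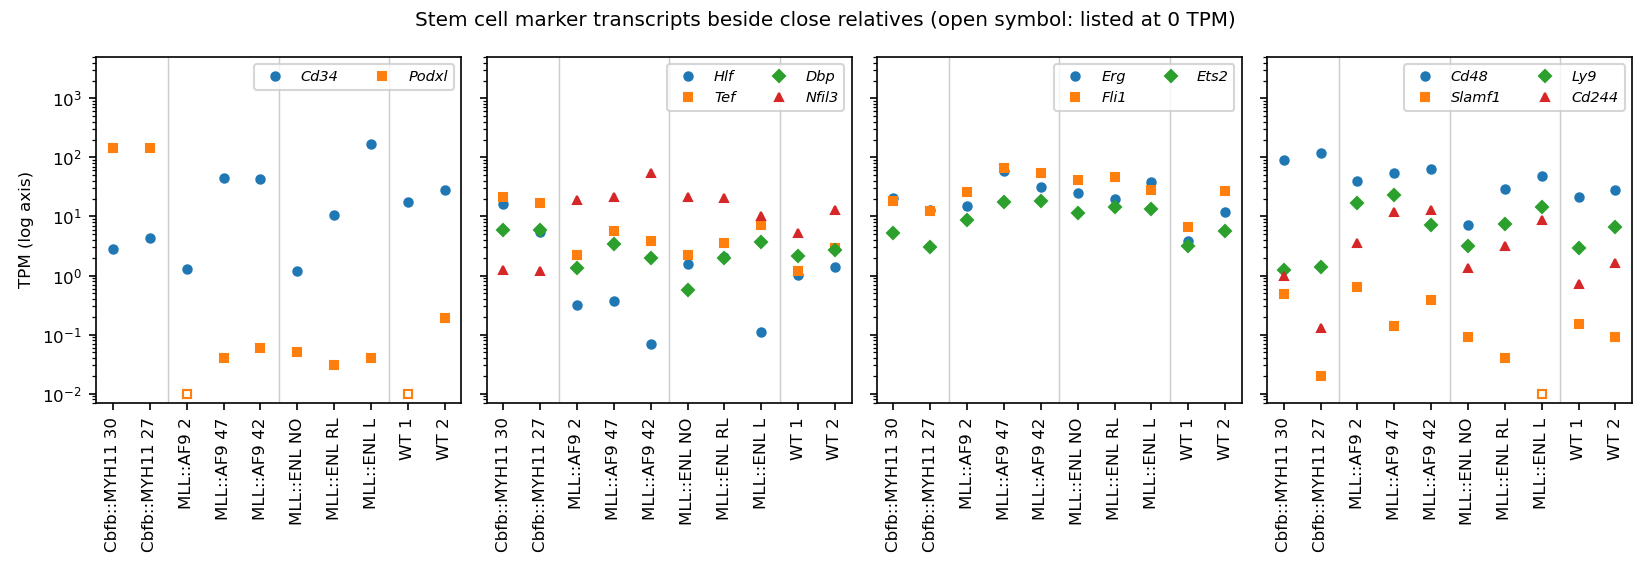
Members beside their relatives in TPM on a log axis, 1 column per library, from Cbfb::MYH11 on the left to WT on the right, with an open symbol where a gene is listed at 0. Podxl is above Cd34 in the 2 Cbfb::MYH11 tumors (144 and 143 TPM) and below it in all other libraries, and Cd48 is above Slamf1 in every library.

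Cd48 and Slamf1 are the pair of SLAM receptors by which mouse stem cells are sorted, and their genes are neighbours on chromosome 1, with 61868 bases between the end of Cd48 and the start of Slamf1. Cd48 was at 78.7 and 118 CPM in Cbfb::MYH11 tumors, 56.0, 38.0 and 53.5 CPM in MLL::AF9 and 9.10, 23.2 and 40.1 CPM in MLL::ENL, against 43.5 and 30.3 CPM in WT cells. The Cbfb::MYH11 tumors were above all other libraries, and the other 3 groups overlapped. In the MLL fusions against Cbfb::MYH11 its log2 fold change was −1.51 (standard error 0.42, edgeR adjusted p = 0.0265). That call was lost without Cbfb::MYH11 30 (edgeR adjusted p = 0.0612), Cbfb::MYH11 27 (0.235) or MLL::ENL RL (0.0501), and by limma on log2(TPM + 1) (0.0797). Against WT the Cbfb::MYH11 value of 1.41 did not pass (edgeR adjusted p = 0.139), and it passed without MLL::ENL NO (0.0427) and in a fit of the 2 groups alone (0.0287). Lymphocytes also express Cd48. The 6 B cell markers summed to 6.45 and 26.8 CPM in Cbfb::MYH11 tumors and 37.5 to 1357 CPM in the MLL tumors, against 273 and 488 CPM in WT cells, and their part in the Cd48 difference was not tested.

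Slamf1 was near the limit of detection, with 24 and 1 counts in Cbfb::MYH11 30 and 27. MLL::AF9 2, 47 and 42 had 33, 5 and 19 counts and MLL::ENL NO, RL and L had 3, 2 and 0, against 10 and 5 in WT 1 and WT 2. Its groups overlapped throughout, and no comparison gave an edgeR adjusted p under 0.448. In MLL::AF9 2, the library with the most Slamf1, B cell markers summed to 1357 CPM and T and NK cell markers to 265 CPM, and their part in the Slamf1 count was not tested. Per length, Cd48 exceeded Slamf1 in all 10 libraries, with 91.8 and 121 TPM against 0.49 and 0.02 TPM in Cbfb::MYH11, and 21.4 and 27.8 TPM against 0.15 and 0.09 TPM in WT cells. Of 10 SLAM receptors and adaptors tested, Cd48 and Slamf1 included, 2 were lower in Cbfb::MYH11 than in WT, beside 6.92% of all genes. These were the receptor Ly9 (log2 fold change −2.47, edgeR adjusted p = 0.0455) and the adaptor Sh2d1b1 (−2.01, adjusted p = 0.0366). None of the 10 passed in MLL::AF9 or MLL::ENL against WT in edgeR, with 2 and 4 at an unadjusted p under 0.05. Cd48 thus stood at its highest in Cbfb::MYH11 tumors while Ly9 was at 2.58 and 2.79 CPM, its lowest.

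The Cbfb::MYH11 fusion alters core binding factor, whose RUNX subunit binds the letters TGTGGT, so promoters were searched for them. RefSeq (GRCm38.p6) gave 16 windows, of 250 bases before to 50 after a start, for 9 of the members, and Esam had none in the table. On both strands TGTGGT was found in 2 of the 16 windows, 1 each of Cd48 and Prom1, beside 16.8% of all 32851 windows. The 2 genes went opposite ways between the tumor models, and both stretches are shown, the last 120 bases before the start, with the match in capitals.
Cd48: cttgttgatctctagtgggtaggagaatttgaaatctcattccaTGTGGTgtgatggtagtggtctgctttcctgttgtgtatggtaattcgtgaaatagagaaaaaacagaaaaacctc
Prom1: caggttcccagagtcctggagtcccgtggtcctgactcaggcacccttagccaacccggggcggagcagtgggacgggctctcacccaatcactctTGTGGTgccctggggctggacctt
The Cd48 stretch is chr1:171681872-171681991 (plus strand), with the match starting at −76 from the start, and the Prom1 stretch is chr5:44101737-44101856 (minus strand), with the match at −24. The E-box CAGCTG was found in 3 of the 16 windows, of Egfl7, Procr and Slamf1 (16.3% of all windows). AGATAA of GATA factors was in 1 window, of Erg (11.2%), and CCGGAAGT of ETS factors in 1, of Cd48 (3.89%). TTACGTAA, the PAR bZIP site, was in none of the members' windows and in 0.119% of all. None of these matches overlaps another, and a match is a description of the sequence only.

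Procr and Esam, shared with endothelium, were scarce in every library. Procr had 2 and 0 counts in Cbfb::MYH11 tumors, 41, 11 and 17 in MLL::AF9 and 0, 1 and 1 in MLL::ENL, against 11 and 14 in WT cells. Summed over libraries and scaled, its level in MLL::ENL was 0.05 of that in WT cells (95% counting interval 0.00574 to 0.20) and in Cbfb::MYH11 0.0711 of it (0.00816 to 0.285). These intervals cover counting error only. Neither difference passed in edgeR (adjusted p = 0.109 in MLL::ENL and 0.131 in Cbfb::MYH11). In MLL::AF9 against MLL::ENL all 3 tumors were above all 3, with 69 against 2 counts in sum, a ratio of 33.0 (8.80 to 278), which edgeR did not call (adjusted p = 0.267) and DESeq2 did (0.0191). Procr passed the filter on low counts only through WT and MLL::AF9 libraries, so these ratios and calls are a description. B cell markers summed to 79.3 to 1357 CPM in MLL::AF9 and 37.5 to 161 CPM in MLL::ENL, and their part in the Procr counts was not tested.

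Esam had 2 and 0 counts in Cbfb::MYH11 tumors, 2, 2 and 7 in MLL::AF9 and 0, 1 and 0 in MLL::ENL, against 21 and 24 in WT cells. All 8 tumors were below both WT libraries. The summed ratio to WT was 0.0395 in Cbfb::MYH11 (95% counting interval 0.00464 to 0.151), 0.146 in MLL::AF9 (0.0682 to 0.287) and 0.0139 in MLL::ENL (0.000344 to 0.0814). No tumor model passed against WT in edgeR (adjusted p = 0.082, 0.173 and 0.0621 in the same order). Limma-voom called Cbfb::MYH11 (0.0316) and MLL::ENL (0.0237), DESeq2 called MLL::ENL (0.0163), and edgeR on the 2 groups alone called both (0.0357 and 0.0486). Esam passed the filter on low counts only through the WT libraries, which tilts every comparison with WT toward lower values in tumors. These ratios and calls are therefore a description and not support for a difference. Platelets and their precursors also express Esam. The 8 genes of a list for these cells summed to 90.9 and 168 CPM in Cbfb::MYH11 tumors and 6.08 to 32.5 CPM in MLL tumors, against 119 and 142 CPM in WT cells. Among them Pf4 was at 1.91 and 0.87 CPM in Cbfb::MYH11 tumors, against 42.8 and 26.9 CPM in WT cells, whereas Gp1ba, the only one of the 8 that edgeR called there, was at 98.1 and 62.9 CPM, against 2.21 and 2.62 CPM in WT cells. The part of such cells in the Esam counts was not tested.

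MLL::AF9 and MLL::ENL share the MLL portion of the fusion, and their marker levels could not be separated by the adjusted test. An unadjusted p under 0.05 was found for 5 of the 10 members (10.2% of all genes), Procr, Slamf1, Cd48, Esam and Msi2, each with a positive log2 fold change of MLL::AF9 over MLL::ENL. For Slamf1, Cd48 and Esam that p lay at the threshold (edgeR unadjusted p = 0.0497, 0.0494 and 0.0498). Procr, Slamf1 and Esam rested on 2, 5 and 1 counts summed over the MLL::ENL tumors. None of them reached 10 counts in any MLL::ENL tumor, so they passed the filter on low counts through other groups. For Procr and Slamf1 these included MLL::AF9 tumors, which tilts the comparison toward higher values there. The count of 5 members is therefore a description and not support for a difference between the models. Msi2 was higher in all 3 MLL::AF9 tumors than in all 3 MLL::ENL tumors (log2 fold change 1.01, 95% interval 0.31 to 1.71, edgeR adjusted p = 0.317). The interval for Egfl7 was −0.90 to 0.41 and for Erg −0.68 to 0.88, so differences of that size remain possible.

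Within a library, the markers differed in rank between the models. Egfl7 led in both Cbfb::MYH11 tumors, with 189 and 241 TPM, and made up 55.8% and 60.0% of the summed TPM of the 10 members, followed by Cd48. MLL::AF9 2 and 42 were led by Cd48 and 47 by Erg, whereas the 3 MLL::ENL tumors each had another leader, Erg in NO, Prom1 in RL and Cd34 in L, where Cd34 made up 62.6%. In WT 1 the leading member was Cd48 with 21.4 TPM and in WT 2 it was Cd34 with 28.2 TPM. The 10 members together summed to 339 and 402 TPM in Cbfb::MYH11 tumors, 89.4 to 180 TPM in MLL::AF9 and 58.2 to 268 TPM in MLL::ENL, against 78.7 and 122 TPM in WT cells. In CPM, the scale used between libraries, they summed to 388 and 444 in Cbfb::MYH11 tumors. The CPM sums were 195 to 270 in MLL::AF9 and 150 to 458 in MLL::ENL, against 254 and 270 in WT cells. Procr, Slamf1 and Esam were the lowest 3 in 7 of the 10 libraries.

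**Figure D5:**
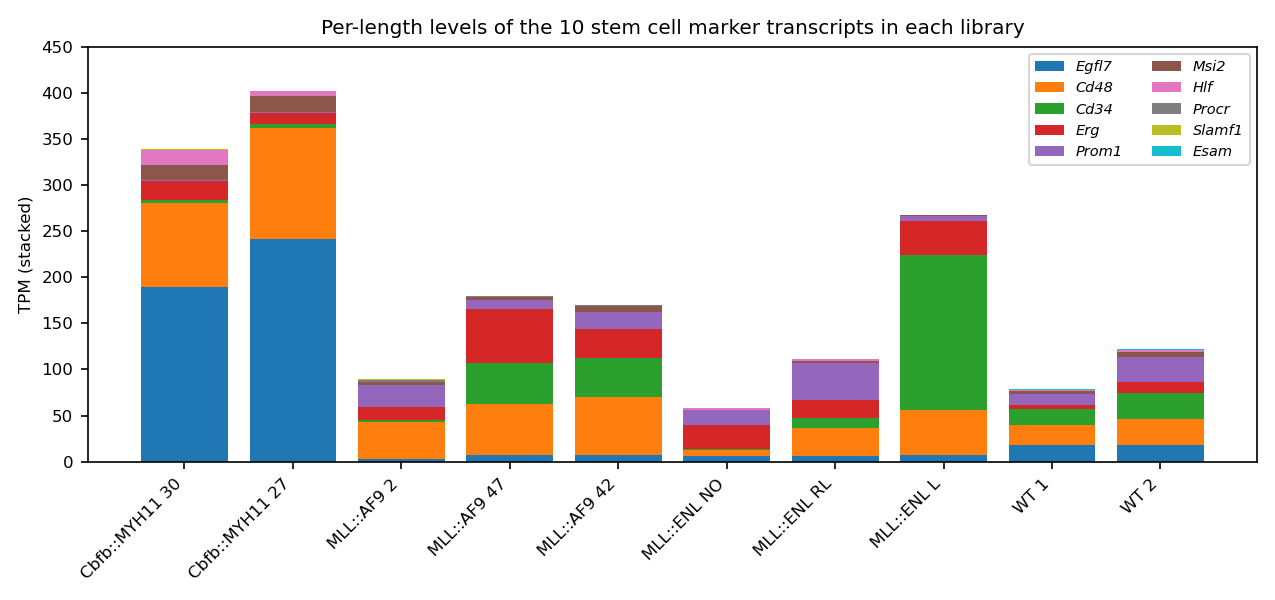
TPM of the 10 markers stacked for each library, which compares genes per length, from Cbfb::MYH11 on the left to WT on the right. Egfl7 and Cd48 fill most of the bar in both Cbfb::MYH11 tumors (sums of 339 and 402 TPM), and Cd34 fills most of it in MLL::ENL L.

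Other genes known from stem cells gave few calls against WT. Of 20 tested, 1 was higher in Cbfb::MYH11 tumors, beside 3.54% of all genes. This was Ctnnal1, which encodes alpha-catulin and marks stem cells of mouse marrow, at 39.8 and 10.6 CPM, against 1.82 and 3.87 CPM in WT cells (log2 fold change 3.14, edgeR adjusted p = 0.025). None passed in MLL::AF9 or MLL::ENL against WT in edgeR, with 8 and 9 of the 20 at an unadjusted p under 0.05, beside 24.4% and 22% of all genes. In the MLL fusions against Cbfb::MYH11, 2 were higher and 8 lower, beside 13.2% and 12.4% of all genes. The higher included Meis1, a Hox cofactor, and the lower included Kit and Gata2, a transcription factor also in the mast cell list, at 0.99 to 69.9 CPM in MLL tumors against 377 and 431 CPM in Cbfb::MYH11 tumors. Of 16 genes of committed myeloid and lymphoid progenitors, 11 were lower in Cbfb::MYH11 than in WT, beside 6.92% of all genes. Among these were Cd33, a lectin of myeloid cells (log2 fold change −6.70, edgeR adjusted p = 0.00073), and Csf3r, the G-CSF receptor (−4.79, adjusted p = 0.0022). Of the 5 that did not pass there, Flt3, Cd27, Il7r and Dntt also lay below WT in both tumors (edgeR adjusted p = 0.153, 0.141, 0.0727 and 0.114). Csf1r lay above WT, at 85.5 and 94.6 CPM against 66.4 and 70.0 CPM (edgeR adjusted p = 0.608). In that comparison 15 of the 16 had an unadjusted p under 0.05, a share that is not given here for all genes. Against WT, none of these progenitor genes passed in MLL::AF9 or MLL::ENL by edgeR, with 2 and 4 at an unadjusted p under 0.05, and 12 of 16 were higher in the MLL fusions than in Cbfb::MYH11, beside 13.2% of all genes. Of 4 tested genes of the protein C pathway, Procr included, F2r, the thrombin receptor, was higher in Cbfb::MYH11 (136 and 180 CPM) and lower in MLL::AF9 and MLL::ENL (at most 1.84 CPM) than in WT cells (9.64 and 14.0 CPM), at 3.74, −3.33 and −4.18 on the log2 scale (edgeR adjusted p = 0.00743, 0.0237 and 0.0118).

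The genes whose log2 CPM ran most like each member over the 10 libraries were sought among 10158 genes of at least 5 mean CPM. Egfl7 ran most like Fcer1a, the alpha chain of the IgE receptor (Pearson r = 0.989), Msi2 like Kcnk5, a potassium channel (0.986), Cd48 like Slc39a4, a zinc transporter (0.984), and Prom1 like Clec5a, a lectin of myeloid cells (0.977). Weaker likeness was found for Procr with H2-K1, an MHC class I gene (0.958), Esam with Ift140 (0.947), Hlf with Bahcc1 (0.938), Erg with Elf4, another ETS factor (0.932), Slamf1 with Sash3 (0.886) and Cd34 with Aco1 (0.882). These are highest values out of many over few libraries that fall into 4 groups, and they are given as a description.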

How the data were processed

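RNA-seq of 10 libraries in 4 groups was analysed. The authors used STAR for alignment to mm10 and RSEM for quantification. Their deposited tables hold, per gene, expected counts, TPM and FPKM, of which the FPKM values were not used (versions and the authors' test are not given in the sources used here). Expected counts were rounded, scaled by TMM and filtered by filterByExpr (at least 10 counts), which left 14875 genes, and fitted with edgeR 4.0.16 (R 4.3.3, limma 3.58.1) in 1 model of 4 groups with 6 residual degrees of freedom. Genes with an adjusted p under 0.05 were called. The deposited TPM values entered only between-gene levels and 1 alternative (limma on log2(TPM + 1), whose fold changes understate those of low genes). The 10 markers, all of which are reported, and the gene lists were chosen with earlier results of these data known. Of each list the calls were counted, relatives of members were named, and of other lists at most 4 called genes, ranked by p. Likeness was Pearson's r of log2 CPM (prior count 2). Alternatives were DESeq2 1.42.0, limma-voom, other scalings and filters, the groups compared alone, and leaving out libraries. Counts from PCR reads give intervals of counting error only.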

Additional observations from a re-analysis of the deposited data

Results flagged for a closer look

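For 5 of the 10 markers, beside 25.6% of all genes, a direct test found that the MLL-fusion tumors and the Cbfb::MYH11 tumors differed. Their changes from the shared WT cells were thus not the same. The log2 fold changes of the MLL fusions against Cbfb::MYH11 were −4.59 for Hlf, −1.51 for Cd48, −2.85 for Msi2, −5.18 for Egfl7 and 4.90 for Prom1 (edgeR, adjusted p = 0.00303, 0.0265, 0.000153, 8.28e-06 and 0.00629). In CPM, for Egfl7 and Msi2 both Cbfb::MYH11 tumors lay above both WT libraries and all 6 MLL tumors lay below both WT libraries. On the TPM scale this did not hold for Msi2 in MLL::AF9 42. For Prom1 and Cd48 the MLL tumors overlapped WT. The Cd48 call was lost without Cbfb::MYH11 30, Cbfb::MYH11 27 or MLL::ENL RL, and the Prom1 call without Cbfb::MYH11 27 or by limma-voom. Groups held 2 or 3 libraries, so single libraries were not tested as outliers.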

How the results depend on the processing

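Of 220 refits of the calls reported above, none changed direction and 31 no longer passed, and of 770 refits of values that had not passed, 18 passed and 23 changed sign. The number of members called ranged, over single-library omissions, from 1 to 4 for Cbfb::MYH11 against WT, 0 to 1 for MLL::AF9 against WT, 0 to 2 for MLL::ENL against WT and 3 to 5 for the MLL fusions against Cbfb::MYH11, and stayed at 0 for MLL::AF9 against MLL::ENL. Fitting only the groups compared gave 7 for Cbfb::MYH11 and 0 for MLL::AF9. The share of all genes called in those fits is not given here, so these counts are not read as particular to the markers. DESeq2 gave 3 for MLL::AF9 and 1 for MLL::AF9 against MLL::ENL, no filter gave 2 for MLL::AF9, and limma on log2(TPM + 1) gave 0 for MLL::AF9 and 0 for MLL::ENL. The causes were not tested. Among values that had not passed, limma-voom turned Slamf1 in Cbfb::MYH11 to −0.40 and Cd34 in MLL::ENL to −1.23, and limma on TPM turned Cd34 in MLL::ENL to −0.53 and, in MLL::AF9 against MLL::ENL, Cd34 to 0.031 and Prom1 to 0.13. Leaving out both MLL::AF9 libraries labelled male (2 and 42) left 47 as the only MLL::AF9 library. Procr was then −0.53 and Slamf1 −1.03 in MLL::AF9 against WT, and Esam −0.24 in the MLL fusions against Cbfb::MYH11. This omission does not separate the sexes, since Y-linked transcripts were present in 2 and 47 and absent in 42. Single-library omissions moved Erg between −0.064 and 0.74 and Slamf1 between −2.99 and 1.34 in Cbfb::MYH11 against WT, Procr between −0.17 and 1.24 in MLL::AF9, and Cd34 between −2.72 and 1.10 in MLL::ENL. In MLL::AF9 against MLL::ENL they moved Cd34 between −1.66 and 2.16, Erg between −0.18 and 0.35 and Prom1 between −0.66 and 0.52, and in the MLL fusions against Cbfb::MYH11 Esam between −0.64 and 3.32 and Slamf1 between −1.75 and 2.51. The genes called by DESeq2 over the whole table were 2888 for Cbfb::MYH11, 2124 for MLL::AF9 and 1815 for MLL::ENL against WT and 481 in MLL::AF9 against MLL::ENL, where edgeR called 1556, 429, 313 and 2. The TPM scale moved the median of all genes by 0.44, 0.37 and 0.41 in the comparisons with WT. No paired analysis was possible because the groups share no 2 replicate numbers in the labels. Procr, Slamf1 and Esam, at 0 to 41 counts a library, are limited by depth.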

Other observations

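A few stem cell genes outside the 10 markers were high in single libraries, and they were picked after their values were seen. Tek, the angiopoietin receptor of stem cells and endothelium, was at 34.5 CPM in Cbfb::MYH11 30 and 0.29 CPM in Cbfb::MYH11 27 and did not exceed 0.14 CPM in the MLL tumors, against 0.47 and 1.21 CPM in WT cells. Its ligand Angpt1 was at 33.4 CPM in Cbfb::MYH11 30 and 32.8 CPM in MLL::ENL L, and at most 9.91 CPM in the other 8 libraries. Mecom, which encodes the stem cell factor EVI1, was at 55.3 CPM in MLL::AF9 42 and below 1 CPM in the other 9 libraries. Xist was at 172 CPM in MLL::AF9 42, labelled male, and at 0.25 CPM in MLL::AF9 47, labelled female.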
